A study of Mus musculus with 6 samples.

Results

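The genes described here are 33 genes of smooth muscle cells, myofibroblasts and pericytes. These genes cover the contractile apparatus and markers of mural cells, the smooth muscle cells and pericytes that surround blood vessels. They were listed by name and role rather than by a cut on measured values, though with earlier results of these data known, and all 33 were found among the 21999 genes counted in cultured lung microvascular endothelial cells. The RNA came from independent isolations, 3 per genotype, of *Ptprz1*+/+ and *Ptprz1*-/- mice, both on a mixed SV129/B6 background, and all cultures were untreated. Lungs of 2 to 5 mice aged 3 to 8 weeks went into an isolation, and the cells were grown in endothelial medium to confluence before beads carrying an antibody to CD31, the product of *Pecam1*, were used to pick out endothelial cells. *Ptprz1* encodes a receptor tyrosine phosphatase, the knockout mice came from a single line, and the sex of the pooled mice is not given in the sources used here.

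Smooth muscle cells contract when myosin slides along thin filaments of smooth muscle actin, a process that starts when myosin light-chain kinase phosphorylates the regulatory light chain of myosin. Most of the genes for this apparatus are switched on together by serum response factor, which binds a short DNA element called the CArG box, and by its partner myocardin. Fibroblasts that become myofibroblasts use many of the same genes, above all *Acta2*, whereas pericytes of the microvasculature are known by a separate set of membrane and signalling genes such as *Rgs5*, *Kcnj8*, *Abcc9* and *Cspg4*.

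Between 14496881 and 17709663 reads were counted on genes per library. Levels are given as CPM, counts scaled to a common library size normalised by the TMM method, always in the order of replicates 1, 2 and 3. *Ptprz1* itself measured 11.9, 101 and 32.1 CPM in *Ptprz1*+/+ and, labelled *Ptprz1*-/-, 70.6, 90.6 and 59.1, so the deleted gene was not lower under its knockout label, and the latter are called the libraries labelled *Ptprz1*-/- with every direction resting on that label. *Pecam1*, the marker of the selection, measured 3.81, 4.40 and 91.0 CPM in *Ptprz1*+/+ and, labelled *Ptprz1*-/-, 1.36, 1.51 and 32.4. Replicate 3 of each genotype thus stood apart as richer in endothelial transcripts. The summed level of 10 fibroblast markers lay between 10948 and 27396 CPM over the 6 libraries, above the 17.2 to 569 CPM of 12 endothelial markers in each of them. These are bulk measurements, in which fewer cells of a type and less RNA per cell cannot be told apart.

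The 33 genes spanned a wide range of levels. Compared per length (RPKM, CPM per kilobase of gene model, mean of 6 libraries), *Acta2* (499.7), *Tagln* (485), *Tpm1* (355), *Flna* (235), *Cald1* (210.4) and *Actn1* (162) were the 6 highest and ranked between 121 and 353 among the 21999 genes. At the other end stood *Abcc9* (0.774 RPKM), *Synpo2* (0.614), *Rgs5* (0.376), *Kcnmb1* (0.228), *Higd1b* (0.0660) and *Myocd* (0.0263). Contractile genes were not all abundant: *Myh11* was at 3.66 RPKM and *Lmod1* at 3.94, below the pericyte and endothelial gene *Mcam* at 6.15. Of the 33, 31 passed the filter on low counts and were tested, while *Higd1b* and *Myocd* had too few reads.

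**Figure D1:**
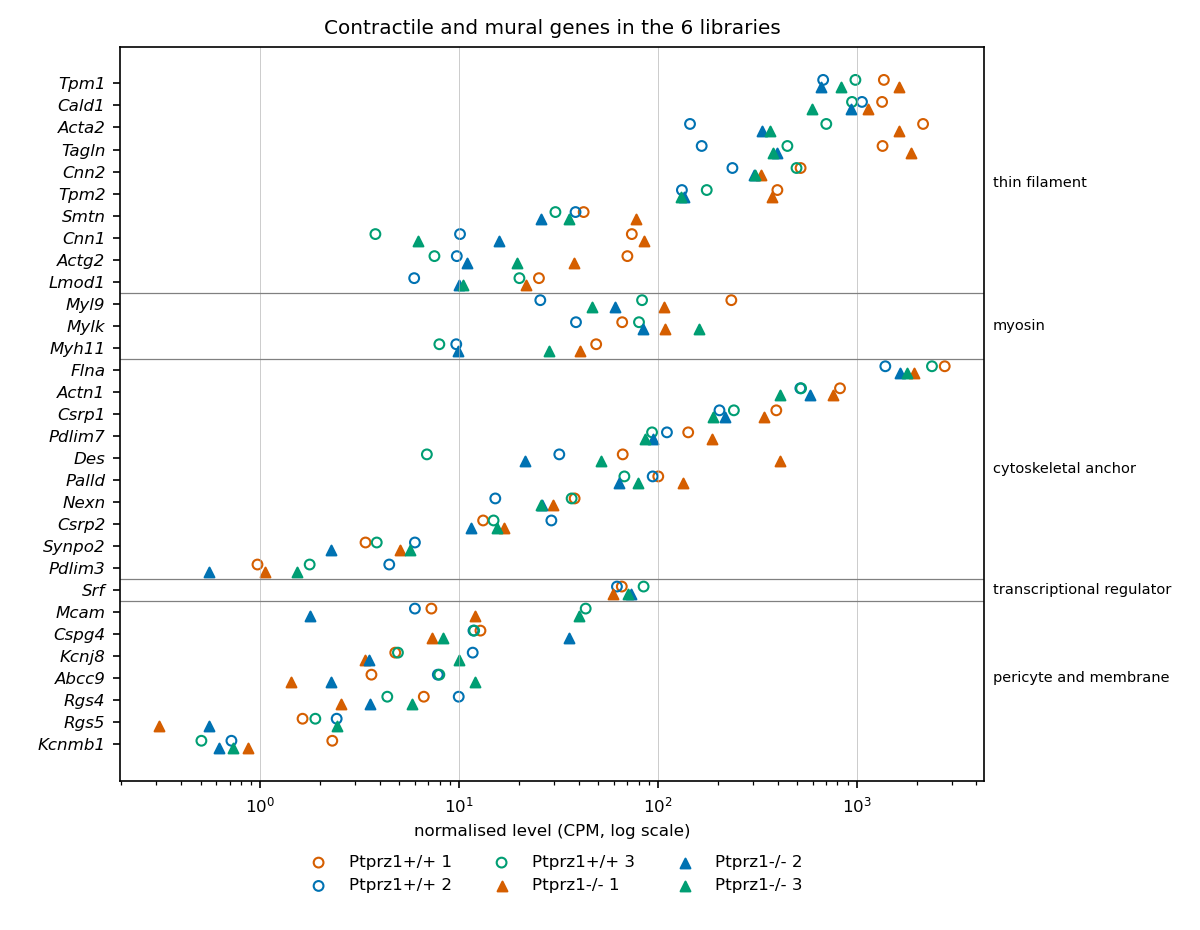
Normalised level (CPM, log axis) of the 31 tested genes in each library, grouped by role; open circles are *Ptprz1*+/+ libraries, filled triangles are libraries labelled *Ptprz1*-/-, and colour gives the replicate number. The replicate 1 symbols of both genotypes lie to the right for the thin filament genes, and the pericyte and membrane genes lie below 50 CPM.

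Which of these genes differed between the genotypes was asked with edgeR's quasi-likelihood test over all 13609 genes that passed the filter. Of the 31 tested genes, 0 had a Benjamini-Hochberg adjusted p-value under 0.05, as did 0 of all genes tested (0.0%). At an unadjusted p under 0.05, 1 of the 31 was higher in the libraries labelled *Ptprz1*-/- (*Mylk*), where 1.13% of all genes tested were, and 0 were lower, where 1.56% were (2.69% in either direction). By DESeq2, 0 of the 33 genes passed its adjusted threshold, which 0.194% of the genes it adjusted did, and 1 had an unadjusted p under 0.05 (2.57% of all genes). A likelihood ratio test in edgeR likewise gave 0 members by adjusted p (0.125% of all genes tested) and 1 by unadjusted p (2.68%), and a replicate block gave 0 and 2, the latter against 5.07%. The groups of libraries did not overlap for 1 of the 31, again *Mylk*, which lay above (3.55% of all genes tested), and for 0 below (3.73%), where 7.28% of all genes tested did not overlap in either direction. Log2 fold changes compare the libraries labelled *Ptprz1*-/- with *Ptprz1*+/+ and carry, after the sign ±, a standard error derived from the test statistic. They were below 0 for 21 of the 31 genes and for 50.9% of all genes tested, with a median of -0.15 against -0.0047 over all genes tested. Leaving out *Ptprz1*+/+ replicate 1 turned that median to 0.17, and leaving out the library labelled *Ptprz1*-/- replicate 1 gave -0.39.

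**Figure D2:**
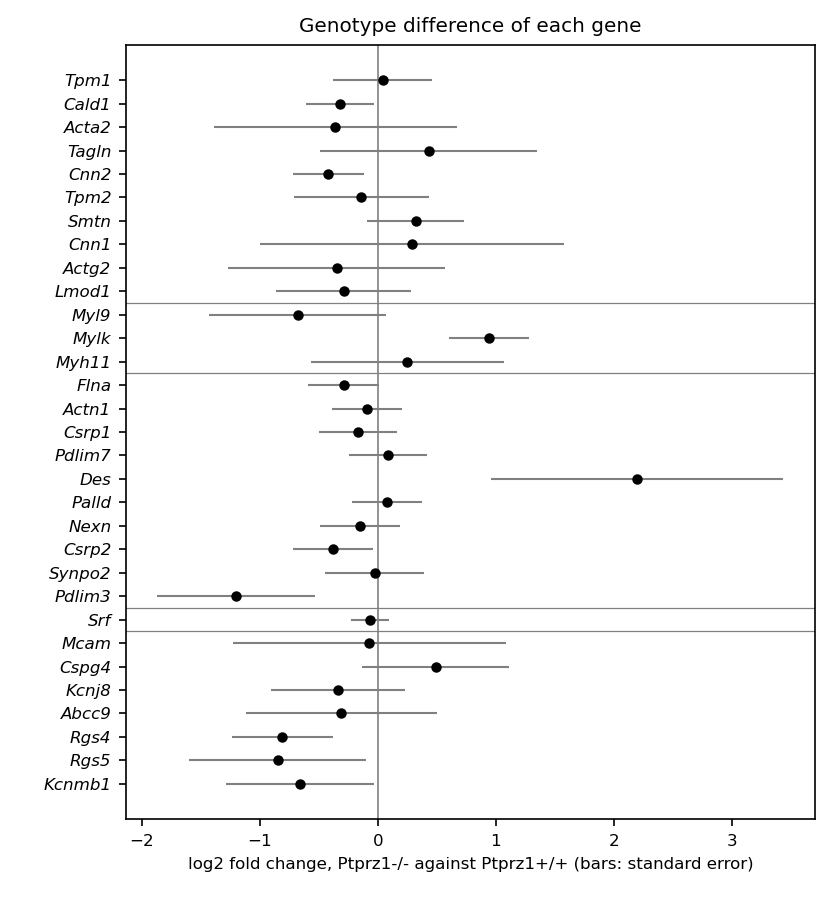
Log2 fold change of each tested gene, libraries labelled *Ptprz1*-/- against *Ptprz1*+/+ libraries, with bars of 1 standard error, in the same order of roles. Most bars cross 0, the widest belong to *Cnn1* (1.29), *Des* (1.24) and *Mcam* (1.16), and *Mylk* (0.94 ± 0.34) is among those clear of 0.

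By role, the median log2 fold change was -0.21 for the thin filament genes (4 above 0 and 6 below), 0.25 for the myosin genes (2 and 1), -0.12 for the cytoskeletal anchors (3 and 7) and -0.34 for the pericyte and membrane genes (1 and 6). Libraries of the same genotype differed widely, and most contractile genes were highest in the same library of each genotype. Replicate 1 was the highest library within both genotypes for 20 of the 31 tested genes, where 17.4% of all genes tested showed that order. This held for all 10 thin filament genes, 2 of the 3 myosin genes, 7 of the 10 cytoskeletal anchors and 1 of the 7 tested pericyte and membrane genes (*Kcnmb1*). Replicate 3 was the highest in both for 3 genes, *Mylk*, *Mcam* and *Abcc9* (14.1% of all genes tested), and replicate 2 for 0 (9.52%). The highest library exceeded the lowest over 3-fold within both genotypes for *Acta2*, *Actg2*, *Tagln*, *Cnn1*, *Myh11*, *Des* and *Mcam*, 7 of the 31 genes, as it did for 6.65% of all genes tested. The median ratio of highest to lowest library was 2.21 within the *Ptprz1*+/+ libraries and 2.45 within those labelled *Ptprz1*-/- for the 31 genes, against 1.48 and 1.37 for all genes tested. Genes that share a library are not independent of each other, and the labels do not say that isolations with the same number were made together.

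**Figure D3:**
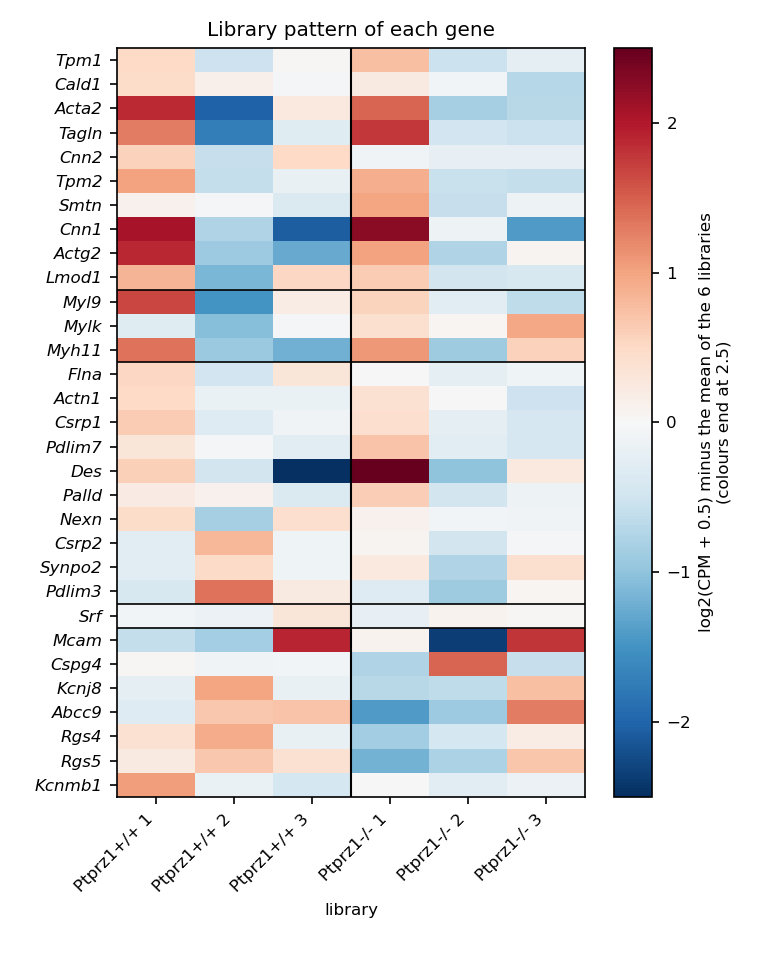
Heat map of log2(CPM + 0.5) of each tested gene (rows, grouped by role) minus its mean over the 6 libraries (columns), with a vertical line between the genotypes. Replicate 1 of both genotypes is red for the thin filament rows apart from *Cnn2*, which is near its mean in the library labelled *Ptprz1*-/- replicate 1, and *Cnn1* and *Acta2* are among the deepest, while the pericyte rows *Rgs4*, *Rgs5*, *Kcnj8* and *Abcc9* are blue in the libraries labelled *Ptprz1*-/- replicates 1 and 2.

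*Srf* (ENSMUSG00000015605, chr17:46546839-46556162 of GRCm38), which encodes serum response factor, was the steadiest of the 31 genes. Its level was 65.8, 62.2 and 84.7 CPM in *Ptprz1*+/+ and, labelled *Ptprz1*-/-, 59.7, 72.8 and 70.5. The groups overlapped, and replicate 1 was not the highest in either genotype, unlike the thin filament genes. Its log2 fold change was -0.068 ± 0.16. *Myocd*, which encodes the smooth muscle and heart coactivator myocardin, had 3, 2 and 5 reads in the *Ptprz1*+/+ libraries and 0, 1 and 2 in those labelled *Ptprz1*-/-, at or near the 3 counts that a count of 0 allows, so a difference was not detectable at this depth.

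The promoters of the members were searched for the CArG box, to show which of them hold it and where in the sequence. RefSeq windows of 300 bases on GRCm38.p6, from 250 bases before to 50 after the start of transcription, were at hand for 26 of the 33 genes (30 windows, since some genes have several starts). The other 7, *Tagln*, *Actg2*, *Myh11*, *Myocd*, *Csrp2*, *Nexn* and *Higd1b*, had no window and were not searched. The full CArG pattern is CC, then 6 bases that are each A or T, then GG. As a pattern it is the same on both strands, though a single box need not be. It was found in 3 of the 30 windows, those of *Cnn2*, *Myl9* and *Srf*, and in 1.63% of 32817 windows of all genes. With at most 1 G or C allowed among its middle 6 bases it was found in 5 of the 30, adding *Acta2* and *Pdlim3*, and in 9.99% of all windows. A match describes the letters only. The sites are shown on the strand of the gene with 10 bases on each side, the box in capitals. Those of *Acta2* and *Pdlim3* and the second of *Myl9* hold the 1 G or C. Distances are counted from the start that the RefSeq window uses, which can differ from the end of the counted gene model. For *Acta2*, on the minus strand, that start lies upstream of the gene model's end at 34255336, so its sites lie farther from that end.
Srf, 82 bases upstream, chr17:46556235-46556244, minus strand: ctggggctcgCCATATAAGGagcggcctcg
Srf, 62 bases upstream, chr17:46556215-46556224, minus strand: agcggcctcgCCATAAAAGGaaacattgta
Cnn2, 56 bases upstream, chr10:79988544-79988553, plus strand: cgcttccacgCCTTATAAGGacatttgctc
Myl9, 161 bases upstream, chr2:156775303-156775312, plus strand: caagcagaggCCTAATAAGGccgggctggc
Myl9, 99 bases upstream, chr2:156775365-156775374, plus strand: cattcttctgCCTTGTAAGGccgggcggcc
Acta2, 84 bases upstream, chr19:34255448-34255457, minus strand: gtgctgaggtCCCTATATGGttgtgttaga
Acta2, 34 bases upstream, chr19:34255398-34255407, minus strand: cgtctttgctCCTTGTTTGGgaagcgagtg
Pdlim3, 100 bases upstream, chr8:45885387-45885396, plus strand: tctctcacttCCAAAGTTGGagctctcctt

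*Acta2*, *Cnn2* and *Myl9*, which hold such letters, were highest in replicate 1 of both genotypes, as were other members that lack them or had no window, while *Srf* and *Pdlim3* were not. The 6-letter motif CATTCC, the MCAT element bound by TEAD factors, was found on either strand in 10 of the 30 windows and in 14.7% of all windows. For *Acta2* the 250 bases before the start, from the window chr19:34255324-34255623, are given, since it is the gene by which myofibroblasts are known; its pair of near matches is in capitals.
Acta2 promoter, minus strand of chromosome 19: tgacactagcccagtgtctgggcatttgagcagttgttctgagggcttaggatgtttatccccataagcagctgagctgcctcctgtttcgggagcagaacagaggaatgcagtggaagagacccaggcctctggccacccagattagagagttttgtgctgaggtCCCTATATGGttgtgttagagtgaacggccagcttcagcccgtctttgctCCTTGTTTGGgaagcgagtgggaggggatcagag

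Among the thin filament genes, *Acta2* (ENSMUSG00000035783, chr19:34241090-34255336), which encodes smooth muscle alpha-actin, measured 2157, 145 and 703 CPM in *Ptprz1*+/+ and, labelled *Ptprz1*-/-, 1636, 332 and 367. Replicate 1 was far above the others in both genotypes, by 14.9 times the lowest library in *Ptprz1*+/+ and 4.93 times in those labelled *Ptprz1*-/-, and the groups overlapped. The means were 1002 ± 1039 and 778 ± 743 CPM (SD, n = 3 each). The log2 fold change was -0.36 ± 1.03 (adjusted p = 1.00 by edgeR's quasi-likelihood test), and it was -1.52 when the library labelled *Ptprz1*-/- replicate 1 was left out and 0.88 when *Ptprz1*+/+ replicate 1 was, so its sign rests on single libraries. Transcripts of *Acta2* align to those of *Actg2* over 1110 bases at 84.4% identity and to those of *Actb* over 1073 bases at 84.1%. They align to those of the striated muscle actin *Acta1* over 1058 bases at 86.4%, so some reads could be shared between these actins.

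*Tagln* (ENSMUSG00000032085, chr9:45929628-45936058), the actin-binding protein transgelin, measured 1349, 166 and 448 CPM in *Ptprz1*+/+ and, labelled *Ptprz1*-/-, 1875, 396 and 379.5. It shared the order of *Acta2* in *Ptprz1*+/+, with replicate 1 highest and replicate 2 lowest, but its overall highest library was the one labelled *Ptprz1*-/- replicate 1. The means were 654 ± 618 and 884 ± 859 CPM (SD, n = 3 each), and the log2 fold change was 0.43 ± 0.92, ranging from -0.75 to 1.53 as single libraries were left out. Exons of *Tagln* overlap 108 bases of *Pcsk7* on the opposite strand, which had 2577 reads over the 6 libraries against 74203 for *Tagln*.

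*Cnn1* (ENSMUSG00000001349, chr9:22099281-22109630), the calponin of differentiated smooth muscle, measured 73.9, 10.1 and 3.79 CPM in *Ptprz1*+/+ and, labelled *Ptprz1*-/-, 84.8, 15.9 and 6.21. Replicate 1 was by far the highest in both genotypes, across a 19.5-fold range in *Ptprz1*+/+ and a 13.7-fold range in those labelled *Ptprz1*-/-. The groups overlapped almost fully. The log2 fold change was 0.29 ± 1.29, and it was -1.40 when the library labelled *Ptprz1*-/- replicate 1 was left out and 2.36 without *Ptprz1*+/+ replicate 1.

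*Actg2*, the gamma-actin of visceral smooth muscle, measured 70.2, 9.73 and 7.51 CPM in *Ptprz1*+/+ and, labelled *Ptprz1*-/-, 38.0, 10.9 and 19.6. Replicate 1 was again the highest in both genotypes, and the *Ptprz1*+/+ libraries covered a 9.35-fold range. *Actg2* had a log2 fold change of -0.35 ± 0.92, which turned to 1.41 without *Ptprz1*+/+ replicate 1. *Lmod1*, which encodes the actin nucleator leiomodin, measured 25.2, 5.94 and 20.1 CPM in *Ptprz1*+/+ and, labelled *Ptprz1*-/-, 21.6, 9.95 and 10.4. Here *Ptprz1*+/+ replicate 2 was the lowest and the other libraries spread less.

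The thin filament genes that non-muscle cells also use varied less. The tropomyosin gene *Tpm1*, which stabilises actin filaments, measured 1369.6, 678 and 985 CPM in *Ptprz1*+/+ and, labelled *Ptprz1*-/-, 1629, 664 and 831. *Tpm2* measured 399, 132 and 176 CPM in *Ptprz1*+/+ and, labelled *Ptprz1*-/-, 376, 136 and 131, with replicate 1 alone above the rest. Their log2 fold changes were 0.043 ± 0.42 and -0.14 ± 0.57, and both changed sign when single libraries were left out.

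*Cald1*, which encodes the filament regulator caldesmon, measured 1342, 1063 and 947 CPM in *Ptprz1*+/+ and, labelled *Ptprz1*-/-, 1144, 935 and 597. The lowest library was one labelled *Ptprz1*-/- (replicate 3), the groups overlapped, and the log2 fold change was -0.32 ± 0.29. *Cald1* lies 11.5 Mb from *Ptprz1* on chromosome 6. *Actg2*, *Kcnj8* and *Abcc9* are on the same chromosome, at least 60.5 Mb away.

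*Cnn2*, the calponin of non-muscle cells, measured 522, 237 and 498 CPM in *Ptprz1*+/+ and, labelled *Ptprz1*-/-, 329, 304 and 307. The libraries labelled *Ptprz1*-/- were close together and between the *Ptprz1*+/+ values. *Cnn2* had a log2 fold change of -0.42 ± 0.30 (unadjusted p = 0.214, edgeR's quasi-likelihood test). Without *Ptprz1*+/+ replicate 2, the lowest library, it was -0.70 at an unadjusted p of 0.00319 (adjusted p = 1.00, same test). In that fit 350 of 13918 genes had an unadjusted p under 0.05, and the library left out was the one against the direction. *Smtn*, smoothelin, measured 42.3, 38.5 and 30.5 CPM in *Ptprz1*+/+ and, labelled *Ptprz1*-/-, 77.7, 25.9 and 35.7, with a log2 fold change of 0.32 ± 0.41.

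Of the myosin genes, *Mylk* (ENSMUSG00000022836, chr16:34745210-35002420) was the gene whose genotypes did not overlap. It encodes myosin light-chain kinase, in long and short forms, and the small protein telokin, which counts per gene do not separate. The gene models that overlap its exons on the opposite strand are not among the genes counted. Reads from them were therefore not measured. Its level was 66.1, 38.7 and 80.3 CPM in the *Ptprz1*+/+ libraries (1094, 704 and 1272 reads) and 109, 84.4 and 160 in those labelled *Ptprz1*-/- (1765, 1230 and 2423 reads). Every library labelled *Ptprz1*-/- was above every *Ptprz1*+/+ library, the closest being 84.4 and 80.3 CPM.

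The means of *Mylk* were 61.7 ± 21.1 and 118 ± 38.5 CPM (SD, n = 3 each), a log2 fold change of 0.94 ± 0.34. The exact two-sided permutation test over libraries gave p = 0.10, the smallest that 3 against 3 allow. In edgeR's quasi-likelihood test the unadjusted p was 0.0301, rank 202 of 13609 genes, and the adjusted p was 1.00, and it lay between 0.538 and 1.00 over the alternative settings. The log2 fold change kept its sign with each library left out, between 0.65 and 1.17. With the replicate 3 libraries of both genotypes left out it was 0.89 ± 0.33. *Mylk* did not follow the order of the thin filament genes: within each genotype its highest library was replicate 3, the one richer in endothelial transcripts, and the part of the cell mixture in its difference was not tested.

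*Myl9*, the regulatory light chain that this kinase phosphorylates, measured 234, 25.6 and 83.2 CPM in *Ptprz1*+/+ and, labelled *Ptprz1*-/-, 107, 60.7 and 46.6. Its order in *Ptprz1*+/+ was that of *Acta2* and *Tagln*, and its groups overlapped. *Myl9* had a log2 fold change of -0.68 ± 0.75, which was 0.40 without *Ptprz1*+/+ replicate 1. *Myh11* (ENSMUSG00000018830, chr16:14194527-14291408), the smooth muscle myosin heavy chain and a defining marker of that cell type, measured 48.9, 9.67 and 7.95 CPM in *Ptprz1*+/+ and, labelled *Ptprz1*-/-, 40.7, 9.88 and 28.4. Replicate 1 was again the highest in both genotypes, and *Myh11* was read in every library, with 126 to 810 reads. Its log2 fold change was 0.25 ± 0.82, and 1.58 without *Ptprz1*+/+ replicate 1.

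Among the cytoskeletal anchors, *Des* (ENSMUSG00000026208, chr1:75360329-75368579), which encodes the muscle intermediate filament desmin, spread most of all 31 genes. It measured 66.5, 31.9 and 6.88 CPM in *Ptprz1*+/+ and, labelled *Ptprz1*-/-, 411, 21.5 and 51.9, a 59.7-fold range. A single library, that labelled *Ptprz1*-/- replicate 1, held most of its reads (6618), and the other 5 libraries overlapped. Its log2 fold change was 2.20 ± 1.24, the highest of the 31, and it was 0.074 without that library. The same library held the most transcripts of 10 mesothelial markers, 1582 CPM in sum against 134 and 335 in the others labelled *Ptprz1*-/- and 63.3 to 254 in the *Ptprz1*+/+ libraries. None of these mesothelial markers was at 0 in any library, and their part in the level of *Des* was not tested.

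The actin cross-linkers *Flna* and *Actn1* and the LIM protein *Csrp1* were abundant and varied 1.99-fold, 2.01-fold and 2.08-fold over the 6 libraries. *Flna*, filamin A, measured 2772, 1393 and 2391 CPM in *Ptprz1*+/+ and, labelled *Ptprz1*-/-, 1936, 1645 and 1786. *Actn1*, alpha-actinin, measured 824, 520.5 and 525 CPM in *Ptprz1*+/+ and, labelled *Ptprz1*-/-, 760.4, 583 and 409.9. *Csrp1*, a LIM protein of the actin cytoskeleton, measured 394, 204 and 241 CPM in *Ptprz1*+/+ and, labelled *Ptprz1*-/-, 342, 217 and 189.6. All 3 were highest in replicate 1 of both genotypes, with ranges of about the size seen for *Tpm1*, and their log2 fold changes were -0.29, -0.092 and -0.17 with standard errors of 0.30, 0.30 and 0.33.

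*Pdlim7*, *Palld* and *Nexn*, which tie actin to adhesion sites and stress fibres, had log2 fold changes of 0.088 ± 0.33, 0.077 ± 0.30 and -0.15 ± 0.34. *Pdlim7* ranged from 86.0 to 188 CPM and *Palld* from 63.4 to 134, each highest in the library labelled *Ptprz1*-/- replicate 1. *Nexn* measured 38.1, 15.2 and 36.8 CPM in *Ptprz1*+/+ and, labelled *Ptprz1*-/-, 29.5, 26.0 and 25.8. Its low *Ptprz1*+/+ replicate 2 repeats what *Cnn2* and *Flna* showed.

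*Csrp2*, *Synpo2* and *Pdlim3* were lower and went with another library. *Csrp2*, the LIM protein of smooth muscle, measured 13.2, 29.1 and 14.9 CPM in *Ptprz1*+/+ and, labelled *Ptprz1*-/-, 16.8, 11.5 and 15.5. *Pdlim3* measured 0.967, 4.45 and 1.77 CPM in *Ptprz1*+/+ and, labelled *Ptprz1*-/-, 1.05, 0.549 and 1.52, on 8 to 81 reads. For both, and for *Synpo2* (2.26 to 5.99 CPM), *Ptprz1*+/+ replicate 2 was the highest library, which was not the highest library for any thin filament gene. The log2 fold change of *Pdlim3*, the lowest of the 31 at -1.20 ± 0.67, moved to -0.39 without it.

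The pericyte genes did not follow the contractile genes. *Rgs5* (ENSMUSG00000026678, chr1:169655501-169695813), a regulator of G protein signalling and the best-known pericyte marker, measured 1.63, 2.42 and 1.89 CPM in *Ptprz1*+/+ and, labelled *Ptprz1*-/-, 0.310, 0.549 and 2.44, on 5 to 44 reads. The libraries labelled *Ptprz1*-/- replicates 1 and 2 were below all *Ptprz1*+/+ libraries and replicate 3 was above them. Its log2 fold change was -0.85 ± 0.75. *Higd1b*, another marker of lung pericytes, had 0, 3 and 2 reads in the *Ptprz1*+/+ libraries and 0 in each of those labelled *Ptprz1*-/-, so that it was at or under the 3 counts that a count of 0 allows.

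*Kcnj8* and *Abcc9*, the pore and the regulatory subunit of the ATP-sensitive potassium channel of mural cells, neighbour each other on chromosome 6. *Kcnj8* measured 4.77, 11.7 and 4.92 CPM in *Ptprz1*+/+ and, labelled *Ptprz1*-/-, 3.35, 3.50 and 9.97. *Abcc9* measured 3.62, 7.81 and 7.95 CPM in *Ptprz1*+/+ and, labelled *Ptprz1*-/-, 1.43, 2.26 and 12.0. As for *Rgs5*, the libraries labelled *Ptprz1*-/- replicates 1 and 2 lay below all *Ptprz1*+/+ libraries for both subunits, and replicate 3 was within or above them.

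*Rgs4*, a relative of *Rgs5*, measured 6.64, 9.95 and 4.35 CPM in *Ptprz1*+/+ and, labelled *Ptprz1*-/-, 2.54, 3.57 and 5.81, with the same arrangement. Log2 fold changes were -0.81 ± 0.43 for *Rgs4*, -0.34 ± 0.57 for *Kcnj8* and -0.31 ± 0.81 for *Abcc9*. Without the library labelled *Ptprz1*-/- replicate 3 they were -1.19, -1.05 and -1.81, and that of *Rgs5* was -2.19. In that fit *Rgs5*, *Abcc9* and *Rgs4* had unadjusted p-values of 0.00561, 0.0134 and 0.0407, where edgeR's quasi-likelihood test gave each an adjusted p of 0.990. The same fit gave 398 of 13927 genes an unadjusted p under 0.05. The library left out held the highest level of these genes among those labelled *Ptprz1*-/-. Without the library labelled *Ptprz1*-/- replicate 1 instead, the log2 fold changes were -0.39 for *Rgs5*, -0.57 for *Rgs4*, -0.07 for *Kcnj8* and 0.15 for *Abcc9*. With the replicate 3 libraries of both genotypes left out, *Rgs5* was at -2.23, *Abcc9* at -1.63 and *Rgs4* at -1.44, again with an adjusted p of 0.999 for each. Replicate 3 held the most endothelial transcripts of either genotype and, with 25782 and 27396 CPM, the highest sum of the fibroblast markers, and the part of these cells in the pericyte genes was not tested.

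*Mcam*, an adhesion molecule of both pericytes and endothelial cells, measured 7.25, 5.99 and 43.3 CPM in *Ptprz1*+/+ and, labelled *Ptprz1*-/-, 12.0, 1.78 and 40.0. It was highest in replicate 3 of both genotypes, as were *Pecam1* (91.0 and 32.4 CPM) and *Cdh5* (199 and 61.3 CPM). *Cspg4*, the proteoglycan by which pericytes are often stained, measured 12.8, 11.8 and 11.9 CPM in *Ptprz1*+/+ and, labelled *Ptprz1*-/-, 7.26, 35.6 and 8.32. The *Ptprz1*+/+ libraries were nearly equal, and the library labelled *Ptprz1*-/- replicate 2 stood alone above them. *Cspg4* had a log2 fold change of 0.49 ± 0.62 (unadjusted p = 0.46, edgeR's quasi-likelihood test). Without that library, the only one above, it turned to -0.64 at an unadjusted p of 0.0264 (adjusted p = 1.00, same test). In that fit 330 of 14093 genes had an unadjusted p under 0.05. *Kcnmb1*, the smooth muscle subunit of the calcium-activated potassium channel, had 8 to 38 reads per library and a log2 fold change of -0.66 ± 0.63.

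**Figure D4:**
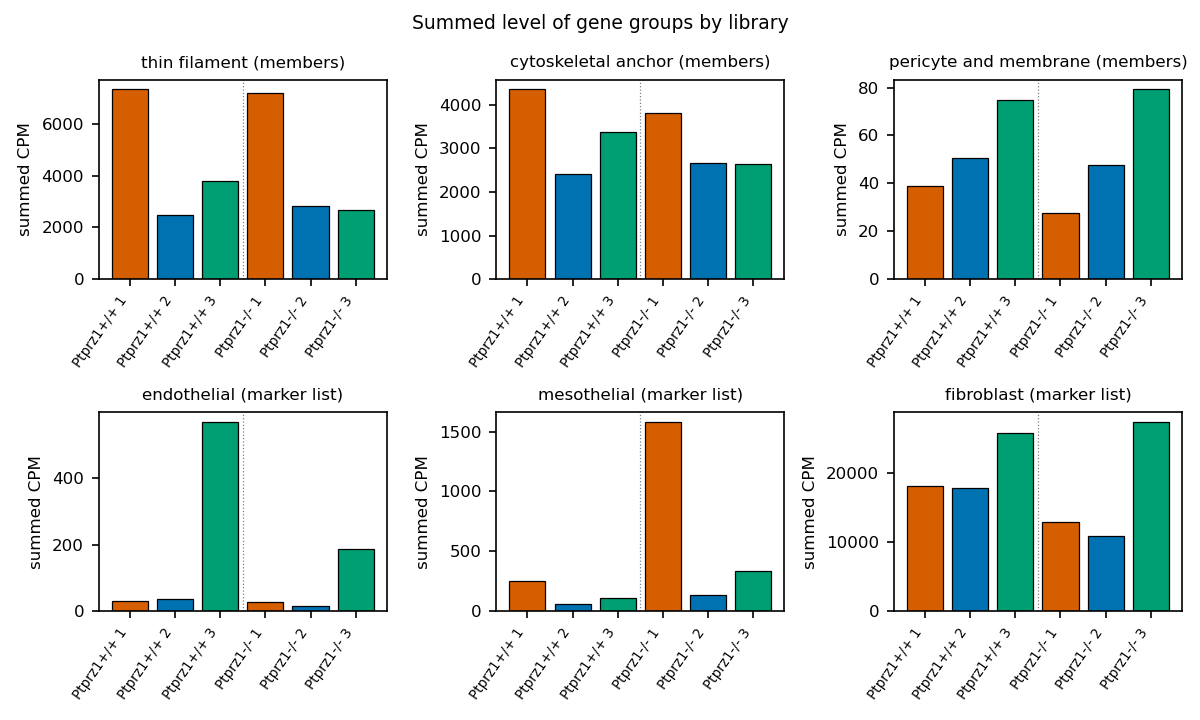
Summed CPM per library (bars from 0, colour by replicate number) of the thin filament, cytoskeletal anchor and pericyte and membrane members in the upper row, and of the endothelial, mesothelial and fibroblast marker lists in the lower row. The thin filament sum is 7352 and 7212 CPM in replicate 1 and between 2485 and 3818 in the other libraries, the endothelial sum is highest in replicate 3, and the mesothelial sum is highest in the library labelled *Ptprz1*-/- replicate 1.

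The summed thin filament level was 7352, 2485 and 3818 CPM in *Ptprz1*+/+ and, labelled *Ptprz1*-/-, 7212, 2831 and 2685. The 8 pericyte and membrane genes together gave 39.0, 50.5 and 75.0 CPM in the *Ptprz1*+/+ libraries and 27.8, 47.8 and 79.2 in those labelled *Ptprz1*-/-, a sum that *Mcam* dominated in replicate 3. Striated muscle markers were low, with sums of 4.03 to 12.6 CPM over 11 genes and 1 to 5 of them at 0 in each library. Single genes held most of the highest sums: *Acta1* (10.6 CPM) in *Ptprz1*+/+ replicate 1 and *Tnnt2* (9.84 CPM, 156 reads) in *Ptprz1*+/+ replicate 3. Like *Acta2*, *Acta1* was highest in replicate 1 of both genotypes, and the part of shared reads in its level was not tested. *Myod1* and *Myog* were among the genes that did not pass the filter. Epithelial markers summed to 1.61 to 2.97 CPM and leukocyte markers to 25.0 to 70.5 CPM.

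Other genes of the same pathway were taken from a list of 35 cytoskeletal genes and cofactors of serum response factor that are not members. Of the 34 tested, 0 passed the adjusted threshold, 2 were lower and 0 higher at an unadjusted p under 0.05 (1.56% and 1.13% of all genes tested), and the groups did not overlap for 5 below and 1 above (3.73% and 3.55%). The 5 were the cytoplasmic actins *Actb* and *Actg1*, the tropomyosin gene *Tpm4*, and the focal adhesion genes *Tgfb1i1* and *Lpp*, the last named after its values were seen. Of the 34, 12 had a log2 fold change above 0 and 22 below. *Myh9*, among the 3 most abundant of the list, measured 2178, 1241 and 2084 CPM in *Ptprz1*+/+ and, labelled *Ptprz1*-/-, 1657, 1899.8 and 1661. Its groups overlapped (log2 fold change -0.077 ± 0.28). *Tpm4* measured 592, 481 and 574 CPM in *Ptprz1*+/+ and, labelled *Ptprz1*-/-, 350.1, 381 and 347, a narrow spread within each genotype. It had a log2 fold change of -0.61 ± 0.15 and an unadjusted p of 0.00630, rank 40, where the adjusted p by edgeR's quasi-likelihood test was 1.00.

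*Actb* measured 2049, 2011 and 2259.8 CPM in *Ptprz1*+/+ and, labelled *Ptprz1*-/-, 1678, 1523 and 1482 (log2 fold change -0.43 ± 0.20), and *Actg1* had a log2 fold change of -0.44 ± 0.19. These cytoplasmic actins were steady between replicates where *Acta2* varied 14.9-fold. *Ctgf*, a secreted target of serum response factor and YAP, measured 195, 48.5 and 155 CPM in *Ptprz1*+/+ and, labelled *Ptprz1*-/-, 319, 412 and 198. All its libraries labelled *Ptprz1*-/- lay above, with a log2 fold change of 1.22 ± 0.53 (adjusted p = 1.00 by edgeR's quasi-likelihood test).

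Of 12 tested pericyte genes that are not members, 0 passed the adjusted threshold, 1 was higher and 2 were lower at an unadjusted p under 0.05 (1.13% and 1.56% of all genes tested), and the median log2 fold change was -0.27. *Pdgfrb*, the receptor through which pericytes are recruited and which fibroblasts also carry, was the most abundant, with 700.2, 465 and 666 CPM in *Ptprz1*+/+ and, labelled *Ptprz1*-/-, 535, 838 and 693 (log2 fold change 0.17 ± 0.25). *Ebf1* and *Postn* lay below in all libraries labelled *Ptprz1*-/-, as did 3.73% of all genes tested, with log2 fold changes of -1.01 ± 0.23 and -0.95 ± 0.28. Their unadjusted p-values were 0.00398 and 0.0141, and the adjusted p was 1.00 for each in edgeR's quasi-likelihood test. *P2ry14* was the gene that was higher, with a log2 fold change of 1.03 ± 0.40 and an unadjusted p of 0.0403 in the same test. Its groups overlapped. *Postn* is also in the list of 20 myofibroblast genes, all tested, of which 0 passed the adjusted threshold. In edgeR's quasi-likelihood test 2 were lower and 0 higher at an unadjusted p under 0.05 (1.56% and 1.13% of all genes tested). The groups did not overlap for 1 below, *Postn*, and for 0 above (3.73% and 3.55%). Of the 20, 6 had a log2 fold change above 0 and 14 below, with a median of -0.18.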

How the data were processed

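The authors deposited a table of 21999 genes holding unnormalised read counts for every gene in each library, and FPKM values, which equal those counts scaled by gene length and by the library's sum of counts. The deposited mean signal per genotype, log2 fold change and p-value columns, and the lists of called genes, hold the authors' own comparison and were not used. The submitters' processing notes name STAR, HTSeq, TopHat, DESeq2 and edgeR, and the builds GRCm38 and mm10, without roles; strand use in counting is not given in the sources used here.

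The quasi-likelihood test of edgeR 4.0.16 (R 4.3.3; glmQLFit, glmQLFTest) compared genotypes without covariates after TMM scaling and filterByExpr. Its p-values were adjusted by the Benjamini-Hochberg method over the 13609 genes that passed, with 0.05 as threshold. CPM and RPKM were computed here on the TMM-scaled library size. The p-values measure the spread between independent isolations. Depth was 14496881 to 17709663 reads. Alternatives were DESeq2 1.42.0, a likelihood ratio test, other filters and normalisation, a replicate block and fits without single libraries or pairs of libraries. Code was tested on simulated data. Promoters came from RefSeq, and transcripts were compared with minimap2 2.31-r1302 (at least 100 aligned bases). The members and gene lists were chosen with earlier results of these data known. All members are named; of the other lists, the 3 most abundant genes and, for the serum response factor and pericyte lists, the 3 of lowest unadjusted p could be named, with *Ptprz1*, *Pecam1* and *Cdh5* as checks.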

Additional observations from a re-analysis of the deposited data

How the results depend on the processing

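With 3 libraries per genotype and standard errors whose median was 0.57 for the members against 0.24 over all genes, differences of the size seen for most members could not be told from the spread. Over all genes, 0 were called; DESeq2 called 31 and the likelihood ratio test 17, of which 0 were members, and leaving out single libraries gave 0 to 0. Of the 31 members, the groups did not overlap for 1, as for 991 of the 13609 genes tested; of the same genes, it was 5 members without both replicate 3 libraries (3614 genes), 5 without both replicate 1 libraries (4315 genes, chosen after seeing the data) and 2 to 5 without single libraries (1867 to 2982 genes), since fewer libraries overlap less. Of 431 fits of single members under alternatives, 53 reversed the sign, in 23 members.

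Whether replicate numbers pair the libraries was not settled. Deviations from the genotype mean correlated between same-numbered libraries at 0.436, -0.0611 and 0.516 over 13609 genes. Replicates 1 and 3 correlated best with their own number, and replicate 2 did not. A replicate block called 0 genes, with 690 at an unadjusted p under 0.05 against 366 without it, and among the members *Mylk* (0.95, adjusted p = 0.538) and *Cnn1* (0.51, adjusted p = 0.942) had an unadjusted p under 0.05 in edgeR's quasi-likelihood test. It turned *Actg2* to 0.19 and *Tpm1* to -0.0082. Without both replicate 3 libraries, *Myh11* was -0.21, *Lmod1* 0.023, *Mcam* 0.062, *Srf* 0.049 and *Nexn* 0.058. Without both replicate 1 libraries, *Actg2* was 0.82, *Smtn* -0.16, *Tpm1* -0.15, *Pdlim7* -0.18, *Kcnmb1* 0.14 and *Palld* -0.18. The cause was not tested.

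Leaving out single libraries, log2 fold changes that reversed ranged from -1.52 to 0.88 for *Acta2*, -0.92 to 1.41 for *Actg2*, -0.75 to 1.53 for *Tagln*, -1.40 to 2.36 for *Cnn1*, -0.20 to 1.58 for *Myh11*, -1.15 to 0.40 for *Myl9*, -0.75 to 0.11 for *Lmod1*, -0.43 to 0.33 for *Tpm1*, -0.81 to 0.48 for *Tpm2* and -0.26 to 0.61 for *Smtn*. They ranged from -0.32 to 0.16 for *Actn1*, -1.02 to 0.27 for *Kcnmb1*, -0.46 to 0.17 for *Csrp1*, -0.47 to 0.064 for *Nexn*, -0.27 to 0.28 for *Synpo2*, -1.05 to 0.21 for *Kcnj8* and -0.59 to 0.058 for *Csrp2*. For the rest they ranged from -0.35 to 0.29 for *Pdlim7*, -1.45 to 1.44 for *Mcam*, -0.16 to 0.080 for *Srf*, -0.29 to 0.29 for *Palld*, -1.81 to 0.15 for *Abcc9* and -0.64 to 0.85 for *Cspg4*.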
